A study of Mus musculus with 91 samples.

Results

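The genes described here are 45 genes of the endoplasmic reticulum (ER) that fold, glycosylate and move secreted proteins, out of 23956 genes in the table. They were taken by name, without a cutoff on any value: 8 chaperones, 7 genes of oxidative folding, 4 of glycan quality control, 12 of the translocon with its signal peptidase, 6 of the oligosaccharyl transferase, 5 of the stress response and ER-associated degradation, and 3 of trafficking. All 45 were in the table, and each was detected in 50% or more of GMP cells or of the other population. They were measured in 91 single bone marrow cells of C57BL/6 mice with the genotype Gfi1-R412X/- Irf8+/-, that is, R412X on one Gfi1 allele, a minus on the other, and a single intact allele of Irf8. Both populations carry this genotype, and no other genotype was analysed here. All cells were sorted as Lineage- CD117+ Sca-1- CD34+ CD16/32high; 46 are labelled GMP (granulocyte-monocyte progenitor) and 45 are labelled CD11b+ GMP-P. No animal is named in the labels. Each population is therefore 1 sample, no test between populations was possible, and the spread given is that between cells.

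A secreted or granule protein enters the ER through the Sec61 channel, loses its signal peptide, receives N-linked sugars, and is folded by chaperones and disulfide isomerases before it leaves for the Golgi. Progenitors of neutrophils make granule proteins in bulk in successive waves, first the primary granule proteins such as myeloperoxidase and elastase, then the secondary and tertiary granule proteins. The unfolded protein response, run by ATF6, IRE1 with XBP1, and PERK, raises ER chaperones when unfolded client proteins build up.

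Values are TPM (transcript abundance scaled for length and to a fixed total in each cell), so a level is a share of a cell's transcripts and not an amount of RNA. Read depth per cell is unknown, because TPM does not keep it. The number of genes above 0 had a median of 5461 (range 2796 to 6383) in GMP and of 4147 (range 2435 to 6161) in CD11b+ GMP-P. Differences are taken between means of log2(TPM + 1), as CD11b+ GMP-P minus GMP, called lower or higher from a size of 1, which understates differences of genes with many zeros. Transcripts of the gate genes did not all follow the surface gate: Kit (CD117) reached 10 TPM in 26 of 46 GMP and 3 of 45 CD11b+ GMP-P cells, Cd34 in 41 and 14, Itgam (CD11b) in 3 and 24, and Ly6a, which encodes Sca-1, in 40 and 41. Of 9 markers of B cells and of plasma cells, which are rich in ER, 7 (Igj, Mzb1 and Irf4 among them) were at 0 in all cells. Sdc1 was above 0 in 2 GMP cells, at 4.32 TPM or less, and Cd79b reached 10 TPM in 25 GMP and 10 CD11b+ GMP-P cells, with a highest level of 1143 TPM. In all, 4 cells had Elane below 1000 TPM together with late granule cargo below 0.1% of TPM. Of these, CD11b+ GMP-P cell 76 held Prg2, an eosinophil granule gene, at 128468 TPM. GMP cells 8 and 11 held Cpa3, a mast cell and basophil protease, at 5132 and 18984 TPM, and GMP cell 42 held it at 36.4 TPM. Such transcripts were not confined to these 4 cells. Mcpt8, another marker of basophils and mast cells, reached 10 TPM in 14 GMP and 3 CD11b+ GMP-P cells. Its highest level, 6643 TPM, was in a GMP cell outside these 4. Without these 4 cells the counts of lower and higher members, 36 and 0, were as with them.

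Of the 45 members, 36 were lower in CD11b+ GMP-P by 1 or more, none was higher by 1 or more, and 9 differed by less, while 29.9% of the 10030 genes tested were lower and 2.45% higher. The members' median difference was -2.12, with a range from -3.77 for Spcs3 and Rpn2 to 0.41 for Ero1l, and the median of the genes tested was -0.50. The members are mostly abundant genes, and abundant genes were lower more often: among the 5133 commonly detected genes 51.8% were lower, with a median of -1.05, and among the 976 genes with a mean of 5 or more on the log2 scale 67.8% were lower, with a median of -1.51. Of the 26 members at that level 25 were lower, with a median of -2.53. All 45 members overlapped between the populations, in that the highest CD11b+ GMP-P cell lay above the lowest GMP cell. The share of all genes that overlapped in this way is not given. With 80.3% of all values at 0, this overlap does not set the members apart.

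Set against the common shift of -1.05, 24 members were lower by 1 or more, beside 9.61% of the genes tested, 18.6% of the commonly detected ones and 31.7% of the 976 abundant ones. Ero1l, Sel1l, Xbp1 and Kdelr2 were higher by 1 or more relative to that shift, by 1.46, 1.39, 1.05 and 1.02; 23.2% of the genes tested and 14.9% of the commonly detected genes were. At a pseudocount of 10 none of the 4 was, at 0.89, 0.69, 0.82 and 0.54. With Elane at or above 1000 TPM in both populations Kdelr2 alone was, at 1.10, with Sel1l and Ero1l just below 1. Before the shift was taken off, the differences there were 0.46 for Kdelr2, 0.35 for Sel1l, 0.35 for Ero1l and 0.08 for Xbp1. The counts of lower members were smaller on a scale that gives cells at or near 0 less weight. By the log2 ratio of mean TPM 24 members were lower, beside 35.1% of 9916 genes tested. Relative to the common shift 8 were lower by that ratio, beside 21.5%. Of the 26 abundant members 17 were lower by that ratio and 5 relative to the shift, beside 18.3% and 4% of the 976 abundant genes. By that measure the members' median was -1.02 and that of the genes tested -0.55.

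**Figure D1:**
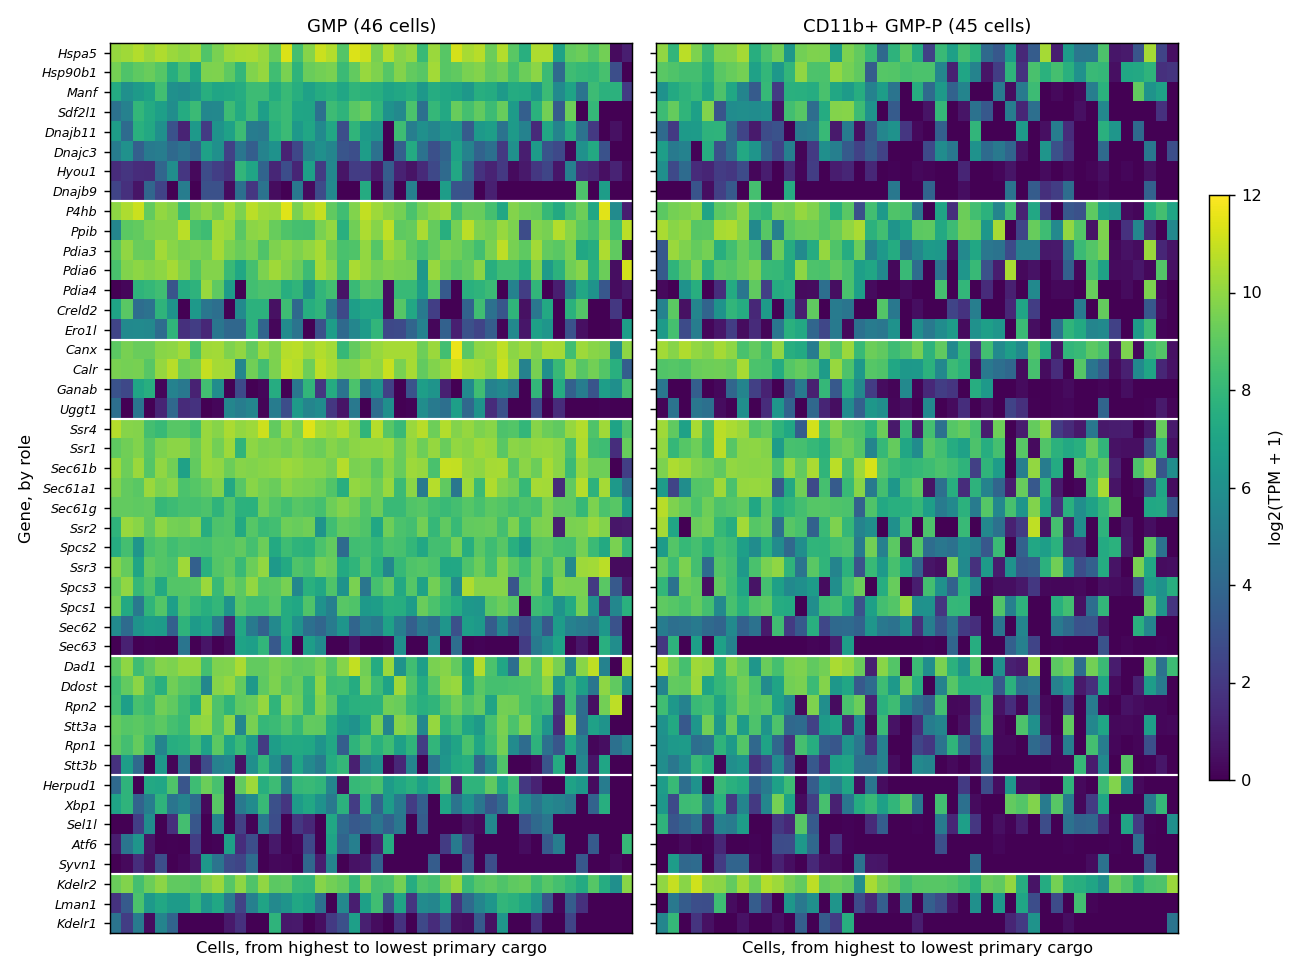
Level of each of the 45 ER genes as log2(TPM + 1), by colour, in every GMP cell (left) and CD11b+ GMP-P cell (right), with genes in order of role and cells in order of falling primary granule cargo. The right-hand cells of the CD11b+ GMP-P panel, with the least primary cargo, are dark for most genes, while Kdelr2 stays bright in nearly all cells of both panels.

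Chaperones held 7 lower members of 8, with a median difference of -1.92, and 4 were lower relative to the common shift. For this and the following role groups, 29.9% of all genes tested were lower, and 67.8% of the 976 abundant ones. Relative to that shift these shares were 9.61% and 31.7%. Hspa5 encodes BiP, the ATP-driven chaperone that binds unfolded chains in the ER, and it was the member with the highest median in GMP. Its lowest, median and highest levels were 0.29, 1118 and 2634 TPM in GMP, against 0.39, 214 and 1706 TPM in CD11b+ GMP-P. Most GMP cells lay above the CD11b+ GMP-P median, although 2 GMP cells were under 10 TPM as were 9 CD11b+ GMP-P cells. The mean log2 level was 9.47 ± 2.13 (SD, 46 cells) in GMP and 6.78 ± 3.13 (SD, 45 cells) in CD11b+ GMP-P, a difference of -2.69. Hsp90b1 (GRP94), the ER form of HSP90, had medians of 524 and 247 TPM and a smaller difference of -1.59.

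The co-chaperones of BiP moved less evenly. Sdf2l1, which works with the ER DnaJ proteins, had medians of 165 TPM in GMP and 10 TPM in CD11b+ GMP-P. Its difference of -2.81 was the widest of the chaperones on this scale. By the log2 ratio of mean TPM Sdf2l1 was at -0.74 and Manf at -0.52, and Hyou1 was widest at -2.97. Dnajb11, a DnaJ protein that passes clients to BiP, had medians of 67.6 and 4.56 TPM, a difference of -2.27. Manf, a BiP-binding protein secreted under ER stress, reached 10 TPM in 45 of 46 GMP cells, against 32 of 45 CD11b+ GMP-P cells, and differed by -2.12. Hyou1 (GRP170), an exchange factor for BiP, was sparse, at a median of 2.68 TPM in GMP and 0.15 TPM in CD11b+ GMP-P, and differed by -1.72. Dnajc3, a DnaJ protein also known as an inhibitor of eIF2α kinases, differed by -1.09, close to the common shift. Dnajb9 (ERdj4), which holds IRE1 in check together with BiP, was above 0 in 26 and 16 cells and differed by -0.80.

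**Figure D2:**
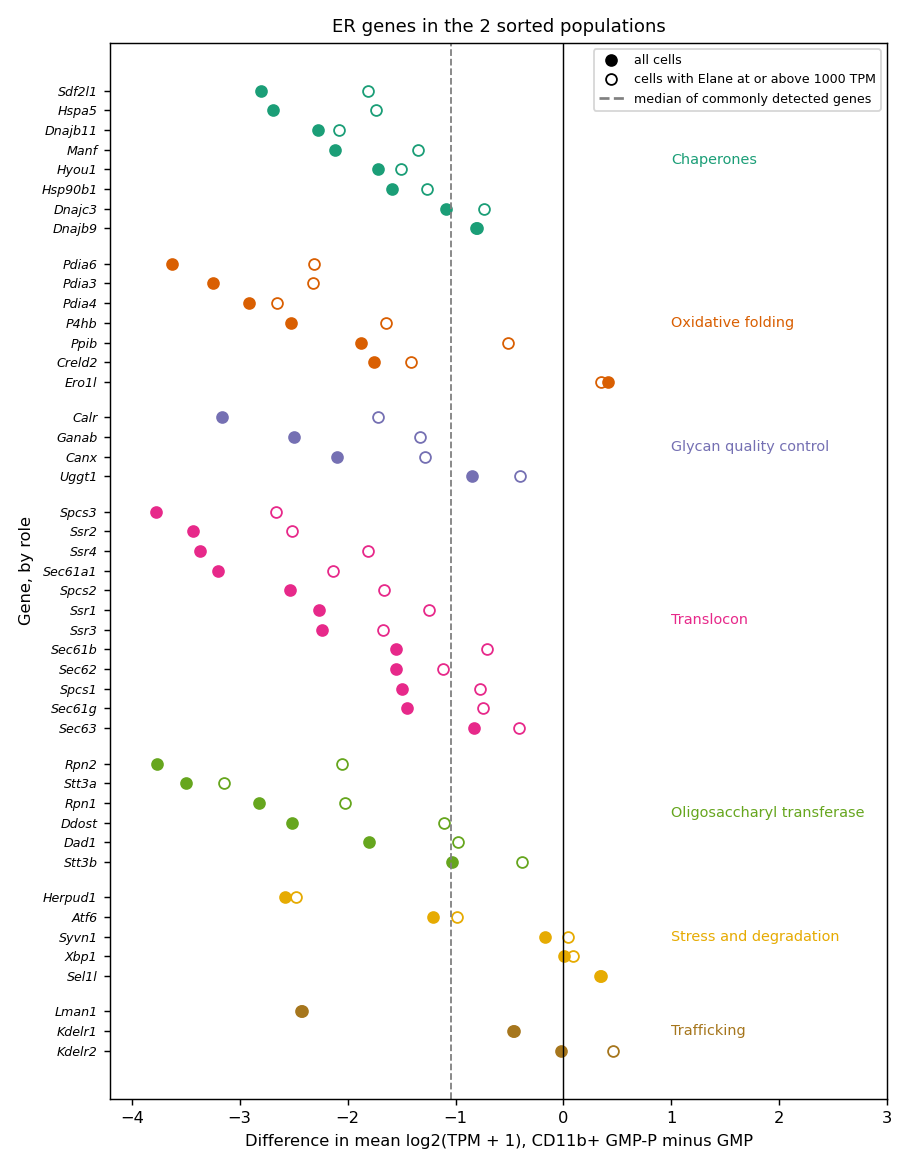
Difference in mean log2(TPM + 1), CD11b+ GMP-P minus GMP, for each ER gene by role; filled points use all cells, open points only cells with Elane at or above 1000 TPM, and the dashed line is the median of commonly detected genes, -1.05. Filled points for most chaperone, folding, translocon and transferase genes lie left of that line, and those of Ero1l, Sel1l, Xbp1 and Kdelr2 lie near 0 or right of it.

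Promoter sequence is shown for the chaperones because several members carry the ER stress response element (ERSE), the site through which NF-Y and ATF6 act on chaperone genes. The letters CCAAT, any 9 bases and CCACG were searched on both strands of the window from 250 bases before to 50 bases after each start in RefSeq (GRCm38.p6, a later build than the data's mm9). They occurred in 39 of 32851 promoters, 0.119%, and in 8 of the 37 members that could be searched: Hspa5, Hsp90b1, Dnajc3, Pdia6, Creld2, Calr, Canx and Syvn1. The 250 bases before the start are given for the pair of chaperones with the highest levels, 5′ to 3′ on the gene's strand, with the fixed letters of the element in capitals. Hspa5 lies on the plus strand (chr2:34771840-34772089) and holds 1 element, which begins 65 bases before the start. Hsp90b1 lies on the minus strand (chr10:86705445-86705694) and holds 2, the first as the gene reads and the second, 107 bases before the start, on the other strand, so that its letters read CGTGG and ATTGG here.
Hspa5: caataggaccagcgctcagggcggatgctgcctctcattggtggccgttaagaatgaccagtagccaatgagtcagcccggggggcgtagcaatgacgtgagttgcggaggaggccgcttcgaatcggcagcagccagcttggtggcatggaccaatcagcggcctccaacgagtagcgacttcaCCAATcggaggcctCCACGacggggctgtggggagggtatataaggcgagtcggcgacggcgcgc
Hsp90b1: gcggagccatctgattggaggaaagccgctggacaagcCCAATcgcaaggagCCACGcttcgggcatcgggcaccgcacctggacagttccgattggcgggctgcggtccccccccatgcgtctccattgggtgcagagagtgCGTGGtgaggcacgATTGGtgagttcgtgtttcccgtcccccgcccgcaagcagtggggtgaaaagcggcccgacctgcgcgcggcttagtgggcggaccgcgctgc

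The elements of the other members are given on the strand that carries them, to show how the 9 bases between the fixed letters vary; Dnajc3, Pdia6, Canx and Syvn1 carry it as the gene reads, and Creld2 and Calr on the opposite strand. Their places in GRCm38.p6 are chr14:118937827-118937845 (Dnajc3), chr12:17266491-17266509 (Pdia6), chr11:50325800-50325818 (Canx), chr19:6046532-6046550 (Syvn1), chr15:88819520-88819538 (Creld2) and chr8:84847075-84847093 (Calr).
Dnajc3: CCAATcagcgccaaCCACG
Pdia6: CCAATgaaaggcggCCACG
Canx: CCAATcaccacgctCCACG
Syvn1: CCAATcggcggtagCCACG
Creld2: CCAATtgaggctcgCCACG
Calr: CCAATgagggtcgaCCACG

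A second form, ERSE-II, made of ATTGG, any 1 base and CCACG, was present in 12 promoters, 0.0365% of those searched, and in 2 members. In Herpud1 it lies on the plus strand, as the gene does, at chr8:94386377-94386387, and in Dnajb11 on the plus strand at chr16:22857852-22857862, beginning 7 bases into the transcript.
Herpud1: ATTGGgCCACG
Dnajb11: ATTGGcCCACG
The letters TGACGTGG, one form of the site bound by ATF6 and XBP1, were in 222 promoters, 0.676%, and in no member searched. Members with an ERSE did not stand together in their differences: 7 of 8 were lower, with a median of -1.93 and values from -3.63 for Pdia6 to -0.17 for Syvn1, and of the 29 searched without one 22 were lower, with a median of -2.24. A match of letters is a description of the promoter and not a measured site of binding.

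Oxidative folding held 6 lower members of 7, with a median of -2.52, and 4 were lower relative to the common shift. Pdia6, a disulfide isomerase, was at 0.36, 747 and 2293 TPM in GMP (lowest, median, highest) and at 0, 120 and 1438 TPM in CD11b+ GMP-P, a difference of -3.63. GMP cells were nearly all high, with 45 of 46 at 10 TPM or more (97.8%, exact Clopper-Pearson interval 88.5 to 99.9%). CD11b+ GMP-P cells were spread over the whole range, with 29 of 45 at 10 TPM or more (64.4%, interval 48.8 to 78.1%); these 95% intervals cover counting error only. Pdia3 (ERp57), the isomerase that works with calnexin and calreticulin, had medians of 731 and 86.6 TPM and a difference of -3.25. Pdia4 (ERp72) had medians of 176 and 0.27 TPM and a difference of -2.91. P4hb, the classical disulfide isomerase PDI, had medians of 755 and 244 TPM and a difference of -2.52.

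The other folding genes differed less. Ppib, the prolyl isomerase cyclophilin B, was at 6.01, 764 and 1821 TPM in GMP and at 0, 468 and 1472 TPM in CD11b+ GMP-P; it differed by -1.88 and had the second highest median of the members in CD11b+ GMP-P. Creld2, an ER stress-inducible protein that binds disulfide isomerases, had medians of 27 and 1.53 TPM and differed by -1.76. Ero1l, now named Ero1a, the oxidase that recharges PDI, was at 0, 13.2 and 237 TPM in GMP and at 0, 26.1 and 357 TPM in CD11b+ GMP-P. Its cells overlapped over nearly the whole range, and its difference of 0.41 stayed above 0 under the alternatives tried, from 0.30 to 1.33. In CD11b+ GMP-P the oxidase was close to its GMP level while P4hb, the isomerase it recharges, differed by -2.52.

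Glycan quality control held 3 lower members of 4, with a median of -2.30, and 3 were lower relative to the common shift. Calr (calreticulin), the soluble lectin chaperone, was at 11.1, 836 and 2107 TPM in GMP and at 0, 165 and 1359 TPM in CD11b+ GMP-P, a difference of -3.17. Canx (calnexin), its membrane-bound relative, was at 58.5, 995 and 3243 TPM and at 0.20, 370 and 1511 TPM, a difference of -2.10. No GMP cell was without either lectin, and 10 TPM was reached in 36 of 45 CD11b+ GMP-P cells for Calr and 40 of 45 for Canx. Ganab, the catalytic subunit of glucosidase II, which trims glucose from new glycans, had medians of 28.8 and 0.27 TPM and differed by -2.50. Uggt1, the glucosyltransferase that marks misfolded glycoproteins for another round, was sparse in both populations and differed by -0.85.

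Translocon genes held 11 lower members of 12, with a median of -2.25, and 7 were lower relative to the common shift. In the channel itself, Sec61a1, the pore subunit, had medians of 677 and 93.9 TPM and differed by -3.20, more than the small subunits Sec61b, with medians of 941 and 404 TPM, and Sec61g, with 415 and 211 TPM, which differed by -1.55 and -1.45. Sec61g was the most even member over GMP cells, at 106, 415 and 875 TPM with an SD of 0.58 on the log2 scale. Sec62 and Sec63, partners of the channel in post-translational import, were low in both populations and differed by -1.55 and -0.83.

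The TRAP complex, which sits at the channel and helps some signal sequences in, differed widely. Ssr4 was at 124, 892 and 2711 TPM in GMP and at 0, 343 and 2345 TPM in CD11b+ GMP-P, a difference of -3.37, and 31 of 45 CD11b+ GMP-P cells reached 10 TPM (68.9%, exact interval 53.4 to 81.8%) against all 46 GMP cells (92.3 to 100%). Ssr2 differed by -3.43, Ssr1 by -2.26 and Ssr3 by -2.24. In the signal peptidase, which removes the signal peptide, Spcs3 was at 0.73, 448 and 1521 TPM and at 0, 48 and 636 TPM, a difference of -3.77. Spcs2 differed by -2.53. Spcs1 differed by -1.50, with medians of 191 and 171 TPM, but by 0.03 in the cells of both populations with like numbers of genes detected, 26 GMP and 21 CD11b+ GMP-P cells.

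All 6 members of the oligosaccharyl transferase, which joins the sugar chain to asparagine, were lower, with a median of -2.67. Relative to the common shift 4 of them were lower. Rpn2 was at 0, 352 and 1799 TPM in GMP and at 0, 19.3 and 813 TPM in CD11b+ GMP-P, a difference of -3.77. It reached 10 TPM in 43 of 46 GMP cells, against 25 of 45 cells of CD11b+ GMP-P, that is 93.5% (exact interval 82.1 to 98.6%) against 55.6% (39.997 to 70.4%). The catalytic subunits differed by unlike amounts: Stt3a, which acts at the translocon, had medians of 355 and 32.3 TPM and differed by -3.50, and Stt3b, which acts on sites that were skipped, had medians of 27 and 2.30 TPM and differed by -1.03. Rpn1 differed by -2.82, Ddost by -2.52 and Dad1 by -1.80, and Dad1 kept a median of 435 TPM in CD11b+ GMP-P beside 665 TPM in GMP.

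The stress and degradation genes held 2 lower members of 5, with a median of -0.17. Of all genes tested 29.9% were lower, and of the commonly detected ones 51.8%. Atf6, Syvn1 and Sel1l had medians of only 0.225, 0.155 and 0.985 TPM in GMP, where the log2 scale understates differences. Xbp1, the transcription factor activated by IRE1 splicing, was at 0, 28.2 and 467 TPM in GMP and at 0, 32.2 and 849 TPM in CD11b+ GMP-P. CD11b+ GMP-P cells were spread more widely and reached higher, with a mean log2 level of 4.73 ± 3.43 (SD) beside 4.72 ± 2.48 (SD) in GMP, a difference of 0.01, which ran from -0.58 to 1.03 under the alternatives. These totals do not separate spliced from unspliced Xbp1. Atf6, the membrane-bound sensor and transcription factor, was above 0 in 26 and 16 cells and differed by -1.21. By the log2 ratio of mean TPM it differed by -2.68. Herpud1, a stress-induced part of the degradation complex, had medians of 148 and 3.08 TPM and differed by -2.58. Syvn1 (HRD1), the ubiquitin ligase of that complex, and its partner Sel1l were sparse, at 10 TPM or more in 7 and 14 GMP cells and in 8 and 15 CD11b+ GMP-P cells, and differed by -0.17 and 0.34.

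Among the trafficking genes, Kdelr2, a receptor that returns ER proteins from the Golgi, was at 62.2, 490 and 1181 TPM in GMP and at 0.57, 552 and 2268 TPM in CD11b+ GMP-P. The populations lay over each other, with a difference of -0.02 that ran from -0.15 to 0.82 under the alternatives. By median TPM Kdelr2 ranked 15 among the 45 members in GMP and 1 in CD11b+ GMP-P, while Hspa5 ranked 1 and 10. Kdelr1, the related receptor, was above 0 in 28 and 16 cells and differed by -0.46. Lman1 (ERGIC-53), a lectin that carries glycoproteins out of the ER, had medians of 48.8 and 1.51 TPM and differed by -2.43.

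**Figure D3:**
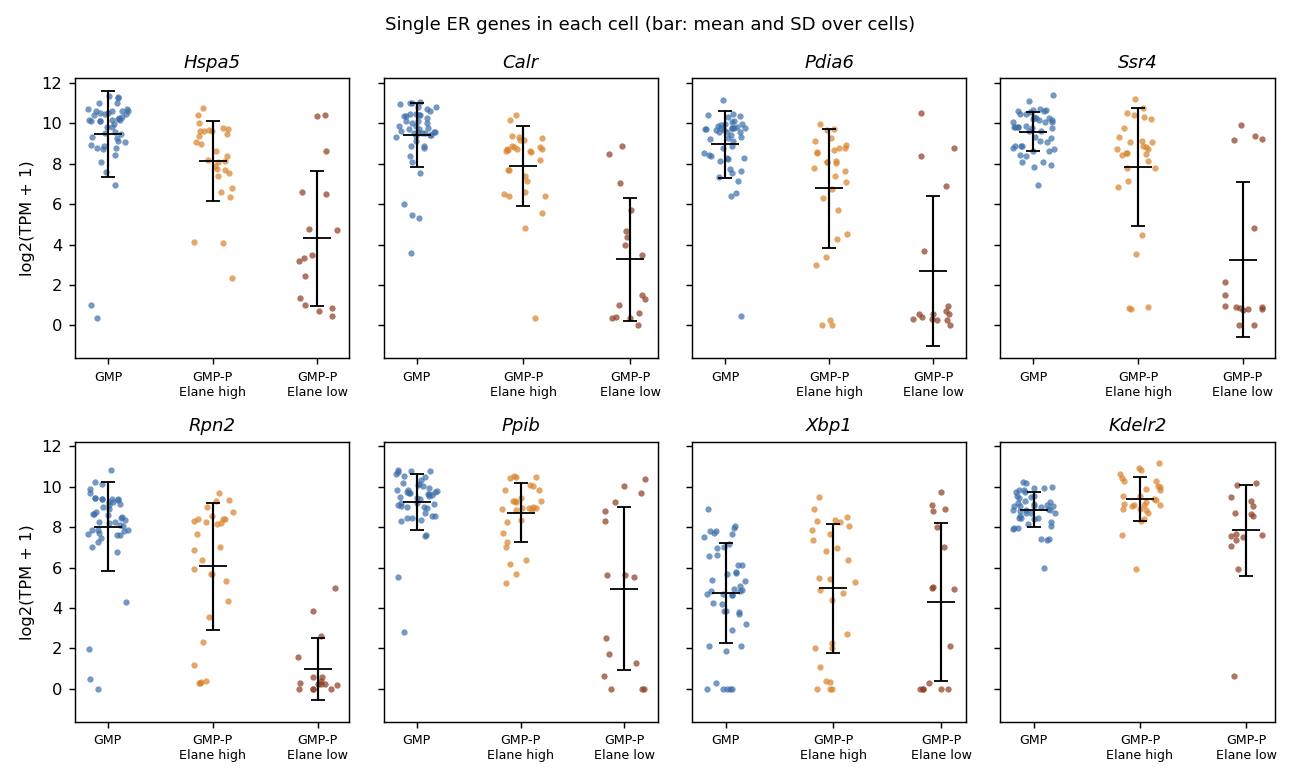
Level of 8 ER genes in single cells as log2(TPM + 1), in GMP and in CD11b+ GMP-P cells with Elane at or above 1000 TPM (high) or below it (low); horizontal bars are means and vertical bars the SD over cells. All 8 genes overlap over the 3 sets and have their lowest mean in the Elane-low cells. The step from Elane-high to Elane-low cells is smaller for Xbp1 (-0.66) and Kdelr2 (-1.56) than for the others. For those it runs from -3.76 for Ppib to -5.08 for Rpn2.

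The granule protein load changed in kind between the populations. Primary granule cargo (Mpo, Elane, Prtn3, Ctsg and Srgn) made up a median of 5.72% of TPM in GMP, with a range from 0.495 to 9.15%, and 1.47% in CD11b+ GMP-P, with a range from 0.00167 to 8.62%. Late cargo, 15 genes of secondary and tertiary granules such as Camp, Ngp, Ltf, Lcn2 and Chil3, made up 0.256% and 10.4%. S100a8 and S100a9, cytosolic calcium-binding proteins that do not pass through the ER, made up 0.0398% and 21.2%. The 45 members together made up 1.76% of TPM in GMP, with a range from 0.542 to 2.32%, and 0.788% in CD11b+ GMP-P, with a range from 0.199 to 1.84%. Since TPM has a fixed total, the members were also taken as a share of the TPM outside cargo, S100a8 and S100a9; its median was 1.84% over GMP cells, against 1.06% over CD11b+ GMP-P cells.

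CD11b+ GMP-P cells covered a wide range of Elane, the gene of neutrophil elastase. In 29 cells it was at or above 1000 TPM and in 16 below, with 3 cells between 500 and 2000 TPM, so these are ranges of 1 gene and not cell types. The summed level of the members had a median of 1.08% of TPM in the Elane-high cells, from 0.348 to 1.84%, and 0.413% in the Elane-low cells, from 0.199 to 0.897%. Outside cargo, S100a8 and S100a9 the medians were 1.30% and 0.785%. The Elane-low cells also had fewer genes above 0, with a median of 3172.5 against 4586, and its part in the difference was not tested.

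Within CD11b+ GMP-P, 35 of 45 members were lower by 1 or more in Elane-low than in Elane-high cells and none was higher, with a median of -2.40; 35.8% of the 9686 genes tested there were lower. Higher genes were 1.78% of those tested. Of the 976 abundant genes 83.8% were lower with a median of -2.37, and all 26 members at that level were, with a median of -3.23. Rpn2, Calr, Ssr4, Sdf2l1, Pdia6 and Ddost differed most, by -5.08, -4.63, -4.57, -4.10, -4.08 and -4.00. Calr had a median of 400.3 TPM in Elane-high and 6.12 TPM in Elane-low cells, and Rpn2 had 128 and 0.21 TPM. Ero1l, Dnajb9, Kdelr1, Sel1l, Atf6 and Xbp1 differed least, by -0.07, 0.08, -0.29, -0.42, -0.48 and -0.66. Of these, Dnajb9, Kdelr1 and Atf6 had medians of 0 TPM in Elane-high and in Elane-low cells. Sel1l had medians of 1.69 and 1.43 TPM, and at such low levels the log2 scale understates differences. The median of the genes tested there was -0.64. Xbp1 had medians of 42.5 and 30.2 TPM. Kdelr2 differed by -1.56 in mean log2 level and still had a median of 290.2 TPM in the Elane-low cells.

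Cells with Elane at or above 1000 TPM in both populations, 43 GMP and 29 CD11b+ GMP-P cells, were compared as well. Of the members, 28 were lower by 1 or more in CD11b+ GMP-P and none higher, with a median of -1.33, while 21% of 10125 genes tested were lower and 2.69% higher. Of the 976 abundant genes 37.1% were lower with a median of -0.73, and of the 26 members at that level 20 were, with a median of -1.67. Stt3a, Spcs3, Pdia4 and Ssr2 differed most, by -3.14, -2.66, -2.65 and -2.52, and Ppib differed by -0.52. Kdelr2 was at 0.46 and Xbp1 at 0.08.

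**Figure D4:**
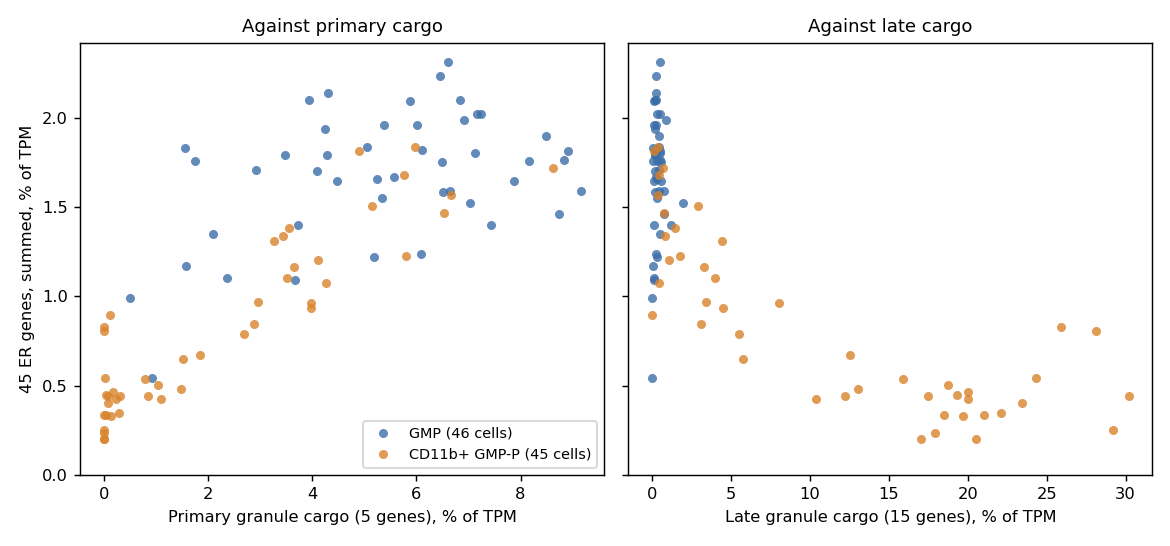
Summed level of the 45 ER genes in each cell (vertical axis, % of TPM) against primary granule cargo (left) and late granule cargo (right), both in % of TPM. CD11b+ GMP-P cells run from 0.199 to 1.84% with primary cargo and down with late cargo, while GMP cells lie mostly between 1 and 2.32% over the whole range of primary cargo.

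The members' summed level ranked with primary cargo across CD11b+ GMP-P cells. Spearman's rho was 0.867 over 45 cells with primary cargo and -0.806 with late cargo. These cells share a library and a fixed total of TPM, and primary and late cargo were themselves related (rho -0.833), as were primary cargo and the number of genes detected (rho 0.846). With the members as a share of TPM outside cargo, S100a8 and S100a9, rho was 0.697 and -0.540, and over all TPM with the number of genes detected held fixed, by partial rank correlation, it was 0.612 and -0.525. With both the share outside cargo and a fixed number of genes, rho was 0.409 with primary cargo and -0.136 with late cargo, so that little of the relation with late cargo was left. Within the 29 Elane-high cells rho was 0.900 with primary and -0.914 with late cargo, 0.892 and -0.841 with the share outside cargo, and 0.840 and -0.811 over all TPM at a fixed number of genes. With both, it was 0.819 and -0.657 in these 29 cells.

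In the 16 Elane-low cells rho with late cargo was 0.171 over all TPM, 0.0382 for the mean log2 level and 0.550 for the share outside cargo, whose denominator leaves out late cargo. With primary cargo the share outside cargo had 0.262, and without CD11b+ GMP-P cell 76, which has almost no late cargo, its rho was 0.639 with late and 0.268 with primary cargo over 15 cells. Among these, cells 89 and 50 had the members at 1.97% and 1.84% of TPM outside cargo, beside the GMP median of 1.84%, with late cargo at 28.1% and 25.9% of TPM. Across the 46 GMP cells the value depended on the measure: rho with primary cargo was 0.281 for summed TPM, 0.412 for the share outside cargo and 0.527 for the mean log2 level of the members, and Pearson's r on log2 values was 0.588. With late cargo these were 0.135, 0.233, 0.357 and 0.541. Without GMP cells 8, 11 and 42 the rank correlation with late cargo was lower, as given below with the processing.

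Per unit of primary cargo the members had like medians in GMP and Elane-high CD11b+ GMP-P cells, but not in Elane-low ones. Summed member TPM over summed primary cargo TPM had a median of 0.312 in GMP, from 0.168 to 1.998. In Elane-high cells it was 0.319, from 0.199 to 1.48. The 43 GMP cells above the same cut had 0.2999, from 0.168 to 1.007. In Elane-low cells the median was 19.8, from 1.92 to 371, and over all 45 CD11b+ GMP-P cells it was 0.401. Elane is part of primary cargo, so choosing cells by Elane also acts on the denominator. Over primary and late cargo together the ratio was 0.299 in GMP, 0.152 in Elane-high and 0.0177 in Elane-low cells. The Elane-low cells carried the most late cargo, 20.3% of TPM at the median, beside the lowest level of ER genes.

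**Figure D5:**
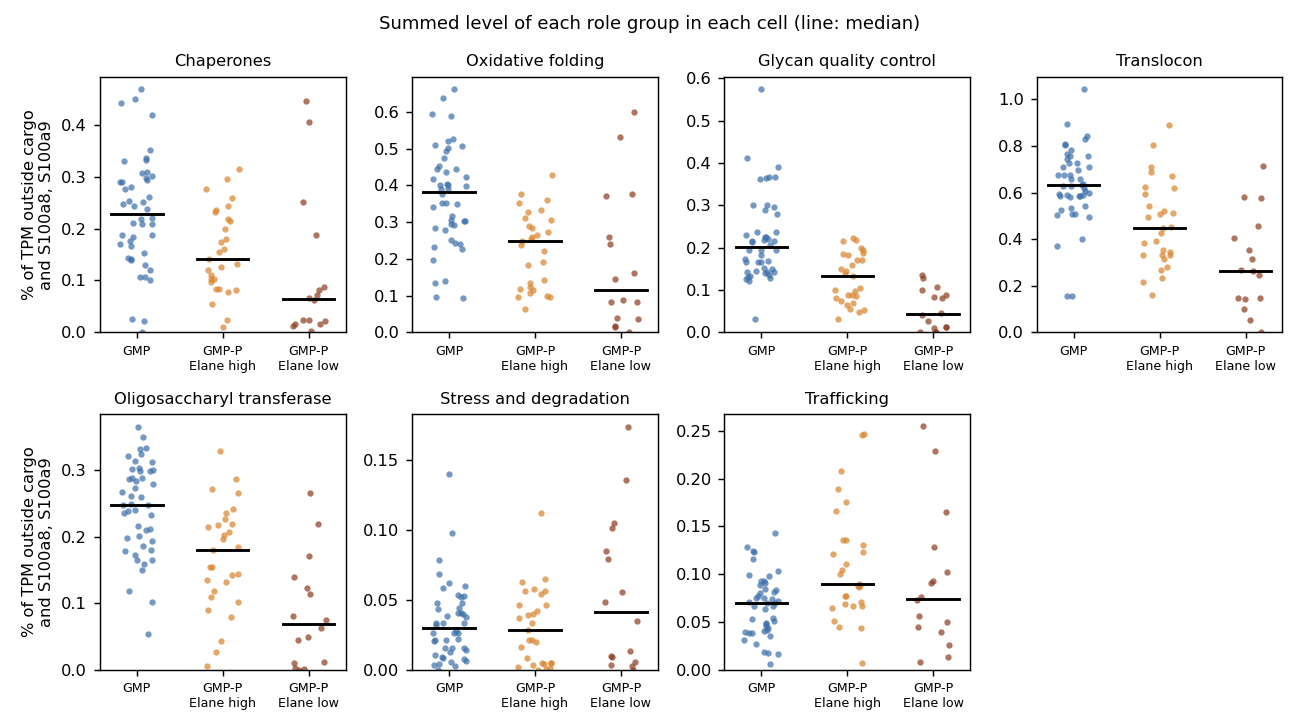
Summed level of each role group in each cell, as a percent of TPM outside granule cargo, S100a8 and S100a9, in GMP and in CD11b+ GMP-P cells with Elane at or above 1000 TPM (high) or below it (low); lines are medians. The medians step down over the 3 sets for chaperones (0.228, 0.141 and 0.0640%), oxidative folding, glycan quality control, translocon and oligosaccharyl transferase. On this scale they do not for stress and degradation (0.0296, 0.0285 and 0.0416%) or trafficking (0.0699, 0.0898 and 0.0744%). By mean TPM the stress sum is mostly Xbp1 with Herpud1, and the trafficking sum mostly Kdelr2.

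By role, the share of TPM outside cargo, S100a8 and S100a9 stepped down from GMP to Elane-high to Elane-low cells for 5 of the 7 groups. For the translocon the medians were 0.631, 0.450 and 0.264%, and for the oligosaccharyl transferase 0.248, 0.181 and 0.0690%. The stress and degradation group had its highest median on this scale in Elane-low cells, 0.0416%, with a range there from 0.000152 to 0.174%. Over all TPM the order turned, with medians of 0.0284% in GMP, 0.0234% in Elane-high and 0.0229% in Elane-low cells. Its rho with primary cargo across CD11b+ GMP-P cells was 0.186 over all TPM and 0.0148 outside cargo, where the translocon had 0.804 and 0.598. The trafficking and stress sums rest on few genes. In CD11b+ GMP-P mean TPM was 683 for Kdelr2, beside 13.5 for Kdelr1 and 29.2 for Lman1. Xbp1 and Herpud1 were at 148 and 74.4 TPM, beside 29.7 or less for the other stress and degradation genes.

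Single members mostly ranked with primary cargo in CD11b+ GMP-P. With each gene rescaled to the TPM outside cargo, 44 of 45 had a rho above 0 with primary cargo, from -0.10 for Ero1l to 0.71 for Calr, and their median of 0.399 over the 40 commonly detected members compares with 0.225 over 3313 genes. In GMP 41 of 45 were above 0, with a median of 0.244 beside 0.0864 over 5000 genes, and P4hb was highest at 0.53. Pairs of members had a median rho of 0.0962 in GMP, with 689 of 990 pairs above 0. In CD11b+ GMP-P it was 0.212, with 695 of 780. Over all genes so detected the medians were 0.0353 and 0.0687. These medians over all genes lie above 0, so most genes and most pairs of genes were above 0 as well. Their exact shares are not given here. The number of genes detected was not held fixed here. The chaperones (0.209) and oxidative folding genes (0.222) were the role groups with the highest pair medians in GMP, and the transferase subunits were at 0.0108 there and at 0.314 in CD11b+ GMP-P.

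The pairs that ranked most alike in GMP were Hsp90b1 with Pdia4 (rho 0.591), Pdia4 with Syvn1 (0.565), Hspa5 with Hyou1 (0.538) and Hspa5 with Sdf2l1 (0.537). Hspa5 was also the member closest to the sum of the others, at 0.660 in GMP and 0.719 in CD11b+ GMP-P. In CD11b+ GMP-P the leading pairs were Calr with Sec61b (0.697), P4hb with Pdia6 (0.690) and Ddost with P4hb (0.592). Of genes outside the list, those most like the summed members over GMP cells were Lsm4 (0.570) and Tmem214 (0.557), and over CD11b+ GMP-P cells Rpl37 (0.718), the cargo genes Mpo (0.696), Elane (0.672) and Prtn3 (0.659), Krtcap2 (0.676), a subunit of the transferase outside the 45, and Ifngr1 (0.675), a subunit of the interferon gamma receptor.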

How the data were processed

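The authors deposited 1 table of log2 values for 23956 genes in 91 cells. Back on the linear scale, less 1, each cell summed to between 999999 and 1000076, so the values are log2(TPM + 1). Per the labels' protocols, cells were captured on a Fluidigm C1 chip, cDNA was made with the SMARTer kit and libraries with Nextera XT, and 150 bp were read from both ends, with 96 cells to a library; these carry no molecular identifiers and no strand. RSEM and mm9 are named in the submitters' processing notes; the sources used here do not give the aligner or annotation. In all 80.3% of values were 0. The highest correlation between 2 cells was 0.736. No doublet caller was run.

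The members and lists were chosen with earlier results of these data known. Means of log2(TPM + 1), shares of TPM and Spearman correlations were computed in Python 3.11.15 with numpy 2.4.6 and pandas 2.3.3. A gene was tested if it was above 0 in 10% or more of the cells in one population or the other, and commonly detected from 50%. No p-value was made from cells. Any member could be named, as could cargo and gate genes; of each other ER list the 4 measured genes farthest from the common median, and of all other genes the 6 most like the summed members in each population. The calculation was tested on simulated data. Promoters came from RefSeq, matched by symbol for 37 of 45 members; Hyou1, Manf, Sec61a1, Ssr2, Spcs3, Atf6, Kdelr2 and Lman1 had no entry. Alternatives were other pseudocounts, scalings and filters, the ratio of means, restrictions on genes detected or on Elane, and other forms of the correlation.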

Additional observations from a re-analysis of the deposited data

How the results depend on the processing

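With TPM and no read counts, depth is unknown, and a 0 can be a missed transcript. No paired analysis was possible because the labels name no animal, and no result comes from a test. Over 11 alternatives and 1 chosen after seeing the data (without the 4 cells low in Elane and late cargo), 24 to 40 members were lower, 8 to 24 were lower relative to commonly detected genes, and the median ran from -1.02 to -2.48. The lower relative count was 8 by the log2 ratio of mean TPM. Higher members numbered 1 by that ratio (Xbp1) and 1 among cells with like numbers of genes detected (Ero1l); relative ones numbered 0 at a pseudocount of 10, 2 among cells with like gene numbers, 2 without the cells with most genes and 1 with Elane at or above 1000 TPM in both populations. The Spcs1 difference reversed to 0.0345 among cells with like gene numbers. The causes were not tested. The common median was -0.64 with median of ratios scaling, -0.88 without cargo and S100 genes and -0.92 without the 50 highest genes. The rank correlation in GMP with primary cargo was 0.412 over TPM outside cargo, 0.527 for mean log2 levels and 0.588 by Pearson. Over TPM outside cargo at a fixed number of genes it was 0.401. With late cargo it was 0.357 for mean log2 levels and 0.541 by Pearson. With late cargo it was 0.0331 without those 4 cells and with Elane at or above 1000 TPM, settings that leave the same 43 GMP cells. In CD11b+ GMP-P it was 0.697 and -0.540 over TPM outside cargo, 0.612 and -0.525 at a fixed number of genes, 0.409 and -0.136 with both, and -0.914 with late cargo in Elane-high cells; the settings with a fixed number of genes and with Elane were added after seeing the data.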

Other observations

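ER genes outside the 45 differed in the same direction. Of 92 such genes in 5 lists, 86 were measured, 62 were lower by 1 or more and none was higher by 1 or more, with a median of -1.58, beside 29.9% and -0.50 for all genes tested, 51.8% and -1.05 for commonly detected genes and 67.8% and -1.51 for abundant ones. Relative to the common shift 31 were lower, with a median of -0.53. Targeting genes held 11 lower of 14, with a median of -1.84, and were led by Sec11a, the catalytic subunit of the signal peptidase (-3.52), and by Srp72 (-3.11), Srp68 (-2.69) and Srprb (-2.63) of the signal recognition particle and its receptor. Of 20 measured folding genes 16 were lower, with a median of -1.61, with Cnpy2 (-3.12), Erp44 (-3.08), Fkbp11 (-2.95) and Dnajc10 (-2.79) at the far end. Of 15 glycosylation genes 11 were lower, with a median of -2.05, led by the transferase subunits Krtcap2 (-2.88), Ostc (-2.77) and Magt1 (-2.51) and by Dpm3 (-2.58), part of dolichol phosphate mannose synthase.

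Vesicle genes held 17 lower of 20, with a median of -1.84, among them Cope (-2.75) of the COPI coat, Sar1b (-2.66), the GTPase that starts the COPII coat, and Mcfd2 (-2.38), the partner of Lman1; Sec24b, a COPII cargo adaptor, was at 0.33. The further stress and degradation genes held 7 lower of 17, with a median of -0.87. Vcp (-2.70), the ATPase that pulls proteins out of the ER, Edem2 (-2.52) and Vimp (-2.43) were lower. Eif2ak3, which encodes the sensor PERK, was above 0 in 6 and 11 cells and differed by 0.27.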
